A study of Macaca mulatta with 56 samples.

Results

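Prefrontal cortex of estradiol-treated and placebo-treated rhesus macaques was compared across all transcripts of 14 libraries, out of 56 libraries in the series. The 14 libraries are those whose column name ends in the prefrontal label. They came from 7 animals labelled OvH-HT (called HT here) and 7 labelled OvH. Each of these old female animals also gave 1 library from each of the other regions sampled, the occipital cortex, the hippocampus and the amygdala. The question set by the series is what estradiol replacement does to the brain transcriptome of old females on an obesogenic diet.

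All 14 animals were female Macaca mulatta between 19.4 and 23.2 years of age, and no genetic modification is labelled. Both groups had the ovaries and uterus removed about 6 weeks after a switch to a Western-style diet. That diet gave 36% of calories as fat and 18.5% as sugars, where regular chow gave 13% and 6%. HT animals then carried capsules that released estradiol, with serum estradiol at 82.1 ± 0.9 pg/mL. OvH animals carried empty capsules, with serum estradiol at 6.6 ± 0.2 pg/mL (the kind of error is not given). The series text gives 30 months for the study and 32 months for the serum average, so the exposure is known only to within these figures. No ovary-intact and no chow-fed animals are part of the comparison, and animals shared pens. Pulverized tissue was sequenced, so fewer cells of a type and less RNA per cell cannot be told apart in any value below.

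Estradiol acts through nuclear receptors, ESR1 and ESR2, that bind DNA and recruit coactivators and corepressors, and through membrane receptors such as GPER1. The dorsolateral prefrontal cortex of primates supports working memory, and estradiol is known there for its effects on the dendritic spines of pyramidal neurons. In other tissues estradiol is also known to act on lipid and glucose metabolism and on inflammatory genes.

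Libraries held 39.1 to 90.2 M recovered reads in HT (mean 59.3 ± 19.5, SD, n = 7) and 44.3 to 78.8 M in OvH (60.7 ± 12.1, SD, n = 7; exact permutation test, two-sided, p = 0.874). A value below is an upper-quartile normalized read count, and a difference is HT minus OvH on the log2(value + 1) scale. The table lists 17807 identifiers, and for 4287 of them the mean level in amygdala differed by over 2 log2 units from that in the other 3 regions. For 74.9% of those the amygdala level was within 1 of an adjacent row, against 25.5% for a row 50 away, so a row's name may not hold in every region. An identifier was therefore named only with a unique gene symbol and a level within these 2 units, which 11796 identifiers met (66.2%). For 1975 of these (16.7%) the level would match better after an exchange with a row at most 3 rows away. Genes of this kind are given below as having an uncertain name. ESR1, PGR, GPER1, GFAP and MBP did not meet the rule and are not described. Of 4 neocortical markers that did, 3 had a higher mean in prefrontal cortex than in hippocampus, among them CUX2 (uncertain name), of upper-layer neurons (3358 against 872), while FEZF2 was lower (1385 against 2226). Of 8 hippocampal markers 6 were higher in hippocampus, most widely FIBCD1 (8805 against 447), while WFS1 and ZBTB20 were not (6253 against 7473, and 106 against 119). The 6 choroid plexus markers summed to 177 to 799 in the prefrontal libraries, with CLDN2 at 0 to 1.53 and SLC4A5 at 58.3 to 298.

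The largest differences between prefrontal libraries did not follow treatment. The first principal component, with 32.6% of the variance, set apart OvH animal 32 (score 82.4) and HT animal 40 (72.2) from scores of -32.6 to 21.3 in the other 12. The second, with 15.1%, set apart OvH animals 31 and 35 (scores -51.2 and -52.6) from scores of -9.03 to 31.2. Animals 31 and 35 had the lowest summed values of 16 pan-neuronal markers, at 619259 and 616245, where the other 12 libraries had 753185 to 905673. They also had the highest sums of 13 microglial markers, at 37355 and 29669 against 12750 to 28634 in the others. Both animals are in OvH, so each gene list below is also given without them, a setting added after the data were seen.

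**Figure D1:**
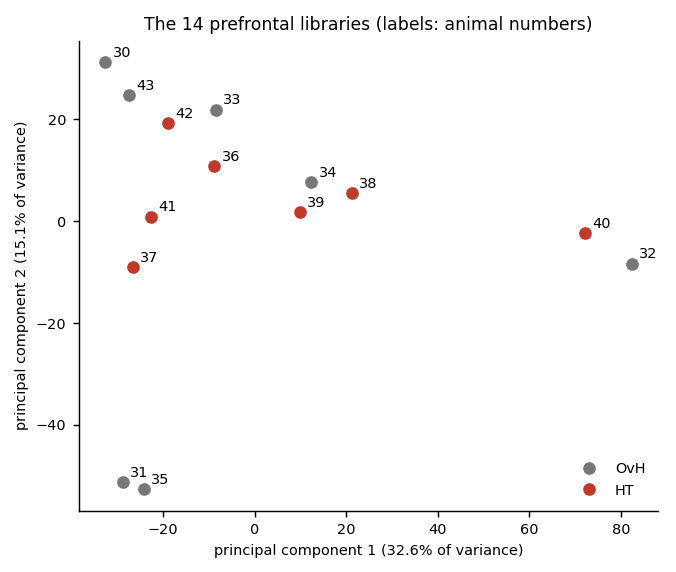
Scores of the 14 prefrontal libraries on the first and second principal components of log2(value + 1), with the share of variance on each axis and grey points for OvH, red for HT, numbered by animal. Animals 32 and 40, 1 from each group, lie at 82.4 and 72.2 on the first axis, and OvH animals 31 and 35 lie at -51.2 and -52.6 on the second.

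No transcript passed the test for an estradiol effect in prefrontal cortex. Of 16286 identifiers with a mean of at least 10, 0 (0%) had an adjusted p under 0.05 by limma with the Benjamini-Hochberg adjustment. At an unadjusted p under 0.05 there were 603 identifiers (3.70%), of which 434 were higher in HT (2.66%) and 169 lower (1.04%). With all 14 libraries this share is below the 0.05 that chance alone gives on average. It was not stable: without OvH animals 31 and 35, 663 of 16271 identifiers were higher at such a p and 276 lower, a share above 0.05. Over all identifiers tested with the 14 libraries, 50.2% were higher in HT and the median difference was 0.00. By edgeR on the recovered reads 0 passed the adjusted threshold (643 unadjusted), and by DESeq2 6 passed (757 unadjusted).

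The values of the genes of smallest p show how far apart the groups were. The groups did not overlap for 7 of 16286 identifiers (0.043%), and 4 of these are named here: SNX14 and ZSCAN26 were higher in every HT library, and MAP2K3 and DVL3 lower. Among this many identifiers some separate ranges arise by chance, so a separate range below is a description and not added support. The typical 95% interval of a difference reached 0.37 log2 units to either side, a 1.30-fold change. Where a gene of a list is named below, its adjusted p by limma was 0.9999 unless given, and SE is the standard error of the log2 difference. The interval was narrower than 1 log2 unit to either side for 95.7% of identifiers.

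Among genes higher in HT, SNX14, a sorting nexin of the endoplasmic reticulum, stood at 1401, 1627 and 2476 (lowest, median, highest) in HT and 879, 1242 and 1302 in OvH. The 2 ranges were separate, with a difference of 0.63 (SE 0.14, limma adjusted p = 0.766; DESeq2 adjusted p = 0.029). ZSCAN26, a zinc finger gene with a SCAN domain, stood at 2983, 3378 and 4278 in HT and 1900.2, 2489 and 2980.2 in OvH. Its ranges met almost without a gap, and the difference was 0.49 (SE 0.11, limma adjusted p = 0.766).

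KYAT3 encodes a kynurenine aminotransferase, which turns kynurenine into kynurenic acid, an antagonist of glutamate receptors. Its lowest, median and highest values were 1201, 1506 and 2496 in HT and 710.1, 956 and 1209.8 in OvH. Of the 7 HT libraries, 6 lay above all OvH libraries. The difference was 0.78 (SE 0.16), a limma adjusted p of 0.766 and a DESeq2 adjusted p of 0.026.

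UGP2, which makes UDP-glucose for glycogen and glycoconjugates, stood at 15238, 16456 and 18168 (lowest, median, highest) in HT and 10050.0, 12400.0 and 15951 in OvH, with 5 HT libraries above all OvH libraries. The difference was 0.44 (SE 0.10, limma adjusted p = 0.766).

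The other 6 genes named as higher had differences of 0.34 to 0.93 and an adjusted p of 0.9999 by limma. HTR2B, a serotonin receptor, had the widest difference, with 67.7 ± 12.3 in HT and 36.2 ± 12.2 in OvH (SD, n = 7 each). EYA2, a transcriptional coactivator with phosphatase activity, averaged 502 ± 93.1 and 334 ± 62.6. DNAJC10 (0.41), a disulfide reductase of the endoplasmic reticulum, LZTFL1 (0.43), a regulator of ciliary traffic, NCBP1 (0.39), the large subunit of the nuclear cap-binding complex, and MINDY3 (0.34), a deubiquitinase, each had 6 HT libraries above all OvH libraries. In all 10 genes named as higher, every HT library was above the OvH median. These genes were chosen by p on the same values, so this describes them and is no added support.

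**Figure D2:**
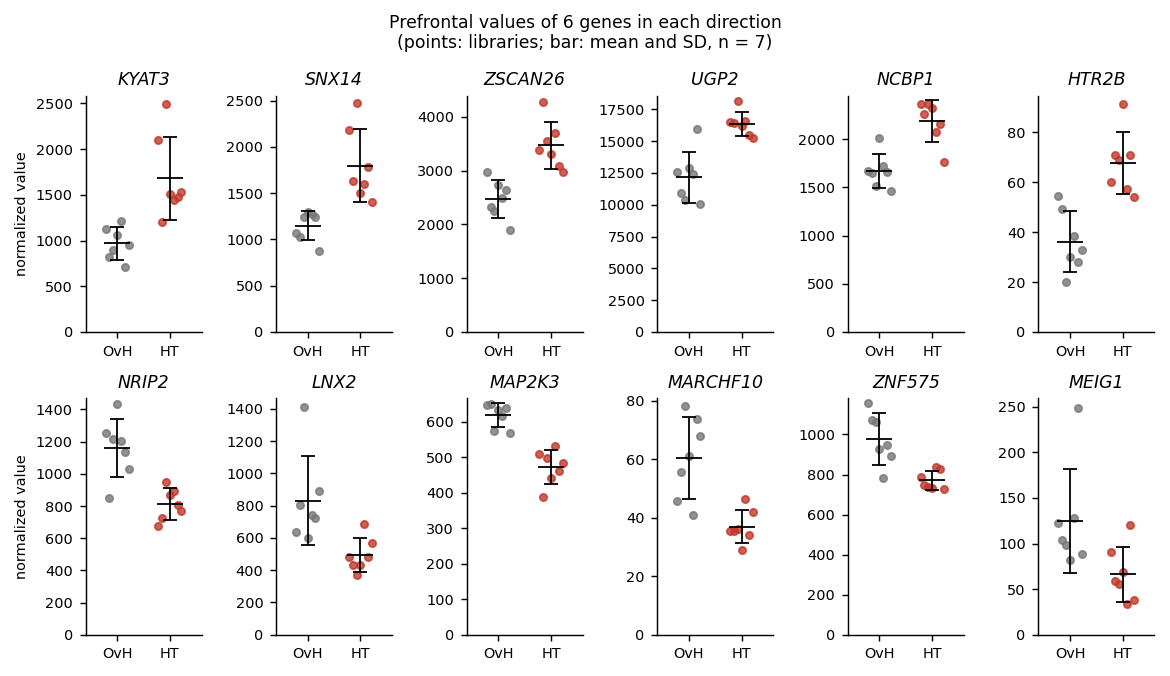
Normalized value of each library (points) with the group mean and SD (bars, n = 7) for 6 of the named genes in each direction, on linear axes from 0, grey for OvH and red for HT. SNX14, ZSCAN26 and MAP2K3 have ranges that do not overlap, and the other 9 share part of their range.

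Among genes lower in HT, NRIP2, which encodes a protein that binds nuclear receptors, had the smallest p. Its lowest, median and highest values were 673, 809 and 950.5 in HT and 851, 1201 and 1431 in OvH. Every HT library was below the OvH median and 4 were below the whole OvH range. The difference was -0.51 (SE 0.12, limma adjusted p = 0.9999), and -0.60 without OvH animals 31 and 35.

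MAP2K3, the kinase that activates p38, stood at 388, 483 and 533 in HT and 569, 634 and 649 in OvH. The ranges were separate. The difference was -0.39 (SE 0.10), with a limma adjusted p of 0.9999 and a DESeq2 adjusted p of 0.026. DVL3, a Dishevelled protein of Wnt signalling, was chosen after its values were seen, because its groups did not overlap: 3555 to 4346 in HT and 4374 to 5022 in OvH, a difference of -0.18.

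The other genes named as lower had differences between -0.32 and -0.92 and an adjusted p of 0.9999 by limma. MEIG1, needed for sperm formation, had the widest, with 66.4 ± 30.1 in HT and 124 ± 57.1 in OvH (SD, n = 7 each), where OvH animal 35 stood alone at 248. MARCHF10, a ubiquitin ligase, averaged 37.0 ± 5.73 and 60.5 ± 13.99. LNX2 (-0.72, uncertain name), also a ubiquitin ligase, had 6 HT libraries below all OvH libraries. INSM1 (-0.73), a transcription factor of neuroendocrine cells, COL20A1 (-0.64), a collagen, TXNRD3 (-0.61), a thioredoxin reductase, and CEBPB (-0.48, uncertain name), a transcription factor of inflammation, followed. ZC3H3 (-0.35), an mRNA export factor, ZNF575 (-0.33), a zinc finger gene, and SNRPB (-0.32), a core spliceosomal protein, had the smallest differences.

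Differences of 9 of these 22 genes were at least as wide, with the same sign, in occipital cortex (7 genes) or hippocampus (2 genes) of the same animals. NRIP2 had -0.70 in occipital cortex and -0.42 in hippocampus. By contrast, UGP2 had 0.18 and -0.11, SNX14 0.38 and -0.08, and KYAT3 0.34 and 0.12. In occipital cortex 0 of 16138 identifiers passed by limma (303 at an unadjusted p under 0.05, 1.88%, with 0.682% higher and 1.2% lower). In hippocampus 0 of 16317 passed by limma (335, 2.05%, with 1.57% higher and 0.484% lower). The regions come from the same animals, so these are not independent samples of treatment.

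**Figure D3:**
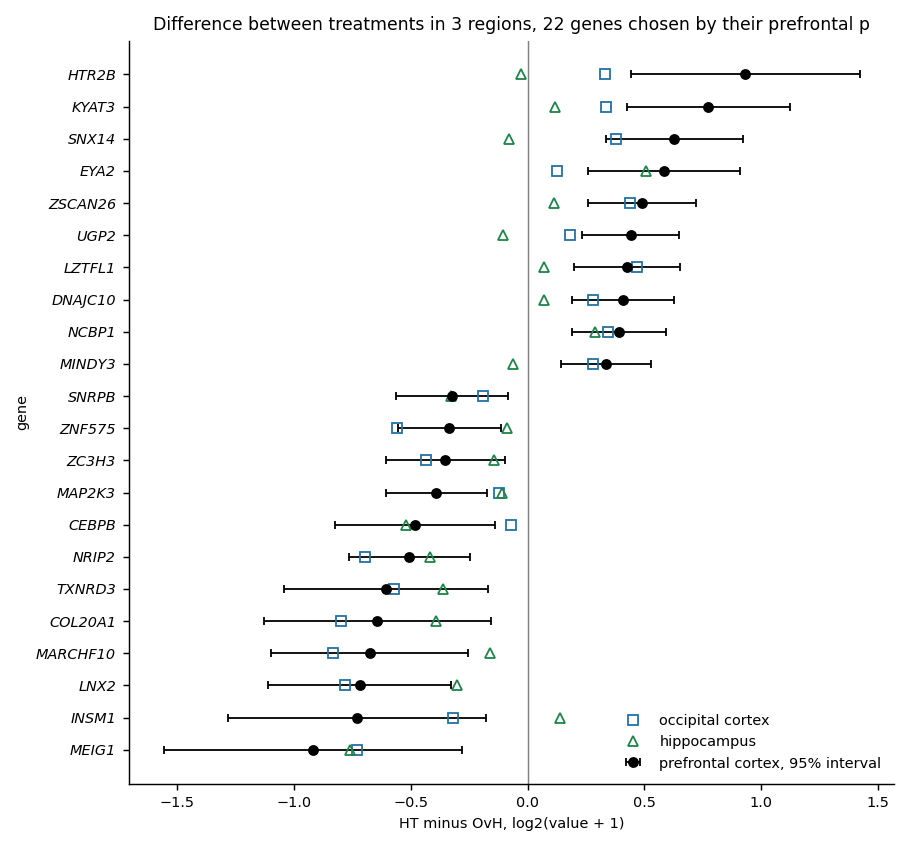
Difference between HT and OvH on the log2(value + 1) scale for the 22 genes named by their prefrontal p, with filled circles and 95% intervals for prefrontal cortex, open squares for occipital cortex and open triangles for hippocampus. The genes were chosen on the filled circles, which lie between -0.92 and 0.93, and the hippocampus points of SNX14, UGP2, HTR2B, MINDY3 and INSM1 lie on the other side of 0. The hippocampus points include the doubtful libraries of OvH animals 30 and 43.

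No nameable member of a list of sex steroid receptors and related proteins passed the test. The list also holds a glucocorticoid receptor, orphan estrogen-related receptors and membrane progesterone receptor components, and ESR1, PGR and GPER1 could not be named. Of 8 nameable members out of 12, 5 were higher and 3 lower in HT, none at an unadjusted p under 0.05. The median difference was 0.02 (5 and 3 without animals 31 and 35, median 0.01). These counts are thus mostly not of receptors that bind sex steroids. ESR2, estrogen receptor beta, was read at a low level, 12.6, 32.1 and 51.7 (lowest, median, highest) in HT and 22.1, 32.8 and 63.1 in OvH. The groups overlapped, with 3 HT libraries below the OvH range, and the difference was -0.40 with a 95% interval of -1.12 to 0.32 (-0.15 without animals 31 and 35).

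The membrane progesterone receptor components were read at higher values. PGRMC2 averaged 2584 ± 470 in HT and 2249 ± 330 in OvH (difference 0.19, interval -0.08 to 0.47), and PGRMC1 9819 ± 2291 and 9561 ± 2639 (0.04, -0.32 to 0.40). The glucocorticoid receptor NR3C1 averaged 5236 ± 620 and 5036 ± 856 (0.06, -0.17 to 0.30). Of the estrogen-related receptors, orphan relatives that do not bind estradiol, ESRRA had a difference of -0.11 (-0.30 to 0.09), ESRRB 0.07 (-0.58 to 0.73) and ESRRG 0.00 (-0.80 to 0.81, uncertain name). The signs for PGRMC1, ESRRB and ESRRG turned when 1 or 2 animals were left out.

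Coregulators of nuclear receptors were mostly lower in HT: 3 of 13 were higher and 10 lower, with a median of -0.08 against 0.00 over all identifiers. They were 4 and 9 without animals 31 and 35 (median -0.06). Only NRIP2, already named above by its p, had an unadjusted p under 0.05. NCOR1, a corepressor, had -0.06. Classical estrogen target genes from other tissues split 9 higher and 5 lower, with a median of 0.03 and none at an unadjusted p under 0.05. IGFBP4, an IGF-binding protein, had the smallest p of these (0.26, SE 0.15, and 0.18 without animals 31 and 35), and XBP1, a target in breast cells, had 0.01. Leaving out animals 31 and 35, 5 of the 14 were higher (median -0.04). Of 8 genes of steroid synthesis and estrogen metabolism 4 were higher, and 5 without these animals.

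Synaptic gene lists had small medians. Of 18 presynaptic genes 14 were higher in HT (median 0.07), of 19 genes of glutamate receptors and their scaffold 11 (0.02), and of 13 actin regulators of dendritic spines 6 (-0.03), with none at an unadjusted p under 0.05. SNAP25, of the vesicle fusion complex, averaged 208643 ± 31369 in HT and 192059 ± 39503 in OvH. Without animals 31 and 35, 5 of the 18 presynaptic genes were higher and the median was -0.07. The glutamate list then had 8 of 19 higher (-0.03), and the spine list 5 of 13 (-0.04), with 1 at an unadjusted p under 0.05. DLG1, a scaffold protein of synapses, had 0.23 (SE 0.14), and RAC1 and CDC42, GTPases that shape spines, had 0.08 and 0.15.

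In inhibitory signalling, 8 of 16 genes were higher (median 0.02), and 6 without animals 31 and 35 (-0.05). GABRA5, a subunit of extrasynaptic GABA-A receptors, stood at 6207, 6886 and 7104 (lowest, median, highest) in HT and 4713, 5974 and 6534 in OvH. Of the HT libraries 5 lay above all OvH libraries, with a difference of 0.24 (SE 0.08, limma adjusted p = 0.9999). GABRA2 had 0.30 (SE 0.15).

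Monoamine and acetylcholine genes split 11 higher and 16 lower (median 0.00), and 12 and 15 without animals 31 and 35 (-0.03). BCHE, butyrylcholinesterase, had 403 ± 58.8 in HT and 302 ± 103 in OvH (0.46, SE 0.18), and ADRA2A, an adrenergic receptor of prefrontal neurons, had 99.8 ± 29.9 and 134 ± 34.8 (-0.43, SE 0.24). Of 10 neuropeptide precursors 8 were higher with all libraries (median 0.04) and 2 without animals 31 and 35 (-0.17). CCK, a peptide of interneurons and pyramidal cells, had -0.22, and -0.43 without them.

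Immediate early genes, which follow neuronal activity, were lower for 13 of 18 (median -0.12), and for 14 without animals 31 and 35 (-0.17). JUNB (uncertain name) stood at 477, 830.1 and 1103 in HT and 884, 1081 and 2093 in OvH, with 4 HT libraries below all OvH libraries (-0.57, SE 0.21). JUN and JUND had 0.02 and 0.03. Of 7 neurotrophin genes 2 were higher (median -0.10), and 4 without animals 31 and 35 (0.11). NTRK2, the receptor of BDNF, had -0.16 with all libraries. Of 22 MAP kinase genes 9 were higher (7 without these animals). MAP2K3, already named above by its p, was the only one at an unadjusted p under 0.05. Of 19 clock genes 7 were higher (-0.04), and of 20 genes of amyloid, tau and Alzheimer risk 8 were (-0.02), with APP at 0.10. The counts without animals 31 and 35 were 10 (0.00) and 8 (-0.04).

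Of 14 genes of glycogen and UDP-sugar metabolism 8 were higher (median 0.02), and 3 had an unadjusted p under 0.05, all higher: UGP2, GBE1 and PGM1. Over all identifiers 3.70% had such a p, 2.66% as higher in HT. UGP2 was already named above by its p in the same data, and the lists were chosen with earlier results known. The count is therefore no separate support for the list. With animals 31 and 35 left out, 8 were higher (median 0.04) and 2 had such a p. GBE1, the glycogen branching enzyme, stood at 802, 931 and 1217 in HT and 593, 736 and 902 in OvH. Of its HT libraries 4 were above all OvH libraries (0.37, SE 0.12). PGM1, phosphoglucomutase, had 5988 ± 750 and 5216 ± 305 (0.19, SE 0.09), and PYGB, brain glycogen phosphorylase, had -0.03.

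Of 14 glycolytic genes 11 were higher (median 0.04) and 0 had an unadjusted p under 0.05, with LDHA at 0.20 (SE 0.12). In the fit without animals 31 and 35, 5 of the 14 were higher (-0.05). Of 17 genes of insulin, IGF and leptin signalling 8 were higher (0.00), and 9 without these animals (0.05), with 0 at such a p in either case. Of 26 respiratory chain subunits 21 were higher (median 0.07), and ATP5F1C, of ATP synthase, had 0.26 (SE 0.10), the only one at such a p. When these animals were left out 18 were higher (0.03). Of 20 genes of cholesterol synthesis and uptake 14 were higher (0.09). HMGCS1, which starts the mevalonate pathway, averaged 7873 ± 1632 and 5741 ± 1492 (0.47, SE 0.18), and SQLE, squalene epoxidase, 2372 ± 366 and 1961 ± 318 (0.28, SE 0.13). Without animals 31 and 35 these were 0.27 and 0.13, and 12 of the 20 were higher (0.02).

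Chaperones were higher for 19 of 23 (median 0.17). HSPH1, a cytosolic chaperone of the HSP110 family, stood at 9684, 12478 and 16109.6 in HT and 7183, 8734 and 12494 in OvH (0.41, SE 0.15), so 3 HT libraries lay above all OvH libraries. Its relative HSPA4 had 0.29 (SE 0.11), while the most highly read members HSP90AB1 and HSPA8 had 0.03 and 0.07. Without animals 31 and 35, 16 of the 23 were higher (median 0.10), with HSPH1 at 0.30 and HSPA4 at 0.19. Members at an unadjusted p under 0.05 went from 2 to 0. Of all identifiers, 3.70% had such a p with all libraries, and without these animals 663 of 16271 were higher and 276 lower. Cytosolic ribosomal proteins were lower for 22 of 27 (median -0.12), with none at an unadjusted p under 0.05. Of the 27, 16 were higher (0.02) without these animals. Splicing genes split 10 and 12, with NCBP1 higher and SNRPB lower as above, and antioxidant enzymes 4 and 12 (-0.08). Without these animals they were 8 and 14, and 8 and 8 (0.01).

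Interferon-stimulated genes were lower for 15 of 20 (median -0.21), and for 13 without animals 31 and 35 (-0.10). ISG15, a ubiquitin-like protein induced by interferon, stood at 73.4, 119 and 227 in HT and 122, 202 and 475 in OvH. Of its HT libraries 4 were below all OvH libraries (-0.79, SE 0.29, and -1.06 without animals 31 and 35). MX1, an antiviral GTPase, averaged 1871 ± 315 and 2309 ± 325 (-0.31, SE 0.12), and IFI6 had -0.30 (SE 0.17).

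Complement genes split 10 higher and 6 lower (median 0.03), with 1 in each direction at an unadjusted p under 0.05. Over all identifiers 2.66% were higher and 1.04% lower at such a p. Leaving out animals 31 and 35 gave 13 and 3 (0.25), with 3 at such a p, all higher. In that fit 663 of all 16271 identifiers were higher at such a p and 276 lower. CFD, a protease of the alternative pathway, averaged 106 ± 31.9 and 184 ± 104 (-0.67, SE 0.31, and -0.45 without animals 31 and 35). C3, the central component, had -0.12. Extracellular matrix genes split 11 and 12 (-0.05), and 15 and 8 without these animals (0.05). LUM, lumican, stood at 159.9, 297 and 559 in HT and 45.6, 131 and 294 in OvH, with 4 HT libraries above all OvH libraries (1.21, SE 0.39, and 0.72 without animals 31 and 35). COL3A1, a fibrillar collagen, had 0.74 (SE 0.31).

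LUM, COL3A1 and OGN (osteoglycin, 0.86, SE 0.33) are also on the list of meningeal fibroblast markers. Of its 10 members 9 were higher in HT, with a median of 0.30. In the libraries without animals 31 and 35, 9 were higher (0.35), with OGN at 0.53, and members at an unadjusted p under 0.05 went from 3 to 1. Of all identifiers, 3.70% had such a p with all libraries. Without these animals 663 of 16271 were higher at such a p and 276 lower. The summed value of the 10 markers was 3967 to 10441 in HT and 3229 to 7643 in OvH. DCN and MGP, the most highly read members, had 0.24 and 0.16. The part of meningeal tissue in the matrix genes was not tested.

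Cell type markers moved with animals 31 and 35. All 16 pan-neuronal markers were higher in HT (median 0.14), with STMN2 at 0.27 (SE 0.09) and INA, a neurofilament protein, at 0.28 (SE 0.13, and 0.13 without animals 31 and 35). Without animals 31 and 35, 9 of 16 were higher and the median was 0.04. Microglial markers went from 5 of 13 higher to 13 of 13, and myelin markers from 8 of 12 to 12 of 12. Animals 31 and 35 are the OvH animals with the lowest pan-neuronal and highest microglial sums. Leaving them out raises the microglial and lowers the pan-neuronal difference by that choice, so these shifts are no separate result. P2RY12, a receptor of resting microglia, had 0.30 (SE 0.13) with all libraries and 0.29 without these animals.

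Astrocyte markers were higher for 9 of 13 (median 0.18), and for 11 (0.20) without animals 31 and 35. SLC1A2, the main glutamate transporter (uncertain name), had 0.24 (SE 0.11) and 0.14 without these animals, and SOX9, a transcription factor of astrocytes, had 0.19 (SE 0.09). Excitatory neuron markers split 6 and 6, interneuron markers 10 and 4, and endothelial markers 10 and 4 (medians 0.03, 0.05 and 0.08). They split, in the same order and without animals 31 and 35, 5 and 7 (-0.02), 3 and 11 (-0.08), and 12 and 2 (0.14). The myelin sum ranged from 150745 to 309980 in HT and from 142279 to 579328 in OvH, where animal 31 was highest. The part of tissue composition in the gene differences above was not tested.

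**Figure D4:**
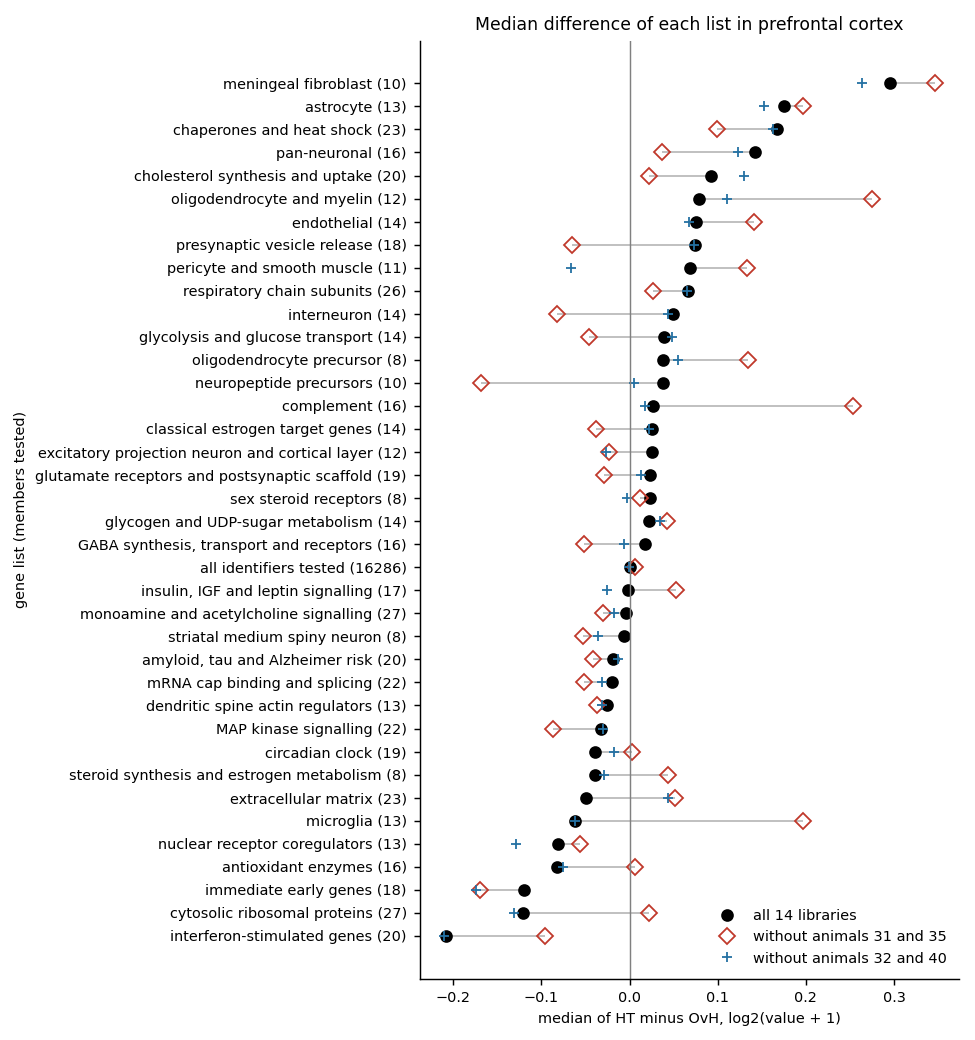
Median difference between HT and OvH on the log2(value + 1) scale for each gene list with at least 8 members tested and for all identifiers, with black circles for 14 libraries, red diamonds without animals 31 and 35 and blue crosses without animals 32 and 40. The circles lie between -0.21 (interferon-stimulated genes) and 0.30 (meningeal fibroblast), and the microglia median goes from -0.06 to 0.20 without animals 31 and 35.

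Several genes differed widely between animals. IL3RA, the interleukin-3 receptor alpha chain, was called by DESeq2 and was chosen after its values were seen. In HT it stood at 0, 121 and 425 (lowest, median, highest), and in OvH at 1.17, 3.36 and 10.4. Animals 37, 39, 41 and 42 were at 121 to 425 in prefrontal cortex and at 169 to 374 in occipital cortex, while HT animals 36, 38 and 40 were at 17.5 or below in prefrontal cortex. The difference of 3.40 (SE 1.10) had a limma adjusted p of 0.9999 and a DESeq2 adjusted p of 0.0011. The hippocampus library of OvH animal 43 was also high, at 126.

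CD163, a scavenger receptor of macrophages, and SERPINA3, an acute-phase protease inhibitor, were chosen after their values were seen, as genes high in animals 31 and 35. CD163 stood at 7831 and 3231 in these animals and at 258 to 524 in the other 12 prefrontal libraries. SERPINA3 stood at 15763 and 18894, and at 644 to 5337 in the others. In the other regions CD163 was also highest in these animals in occipital cortex (2831 and 1472) and hippocampus (9945 and 5239). SERPINA3 was not: in occipital cortex it was highest in animals 37 (16403) and 33 (15063), with animals 31 and 35 at 11062 and 4447. In hippocampus animal 31 was highest (44385), but animal 35 (7874) lay below animals 32, 37, 39, 40 and 41. The HT minus OvH difference was -0.75 with animals 31 and 35 and 0.38 without for CD163, and -1.28 and -0.44 for SERPINA3.

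The 5 named genes of the widest spread within groups were NPC1L1, ZNF467, OBP2B, OLAH and S100A9. ZNF467, a zinc finger gene, stood at 3967, 6931 and 4962 in animals 31, 35 and 41, and at 30.3 to 112 in the other 11. OBP2B, an odorant-binding protein, stood at 2436 in OvH animal 33 and 3550 in HT animal 38, and at 5.42 to 59.3 in the other 12. NPC1L1, a sterol transporter, was under 5 in OvH animals 31, 32 and 43 and HT animal 39, and at 152 to 659 in the other 10. For ZNF467, OBP2B and NPC1L1 the animals that stood apart were in both groups.

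The 2 identifiers of smallest p in the whole comparison carry no name. ENSMMUG00000027707, whose symbol is shared and whose level does not match, was at 85.6 to 318 in HT and 4.19 to 68.1 in OvH (difference 3.26, limma adjusted p = 0.127, DESeq2 adjusted p = 1.2e-06). Its groups overlapped in occipital cortex (1.87, HT from 112, OvH up to 144) and in hippocampus (1.99). There HT animals 42 and 36 were at 4.30 and 23.9, and OvH animals 32 and 43 at 239 and 272. ENSMMUG00000058426, which has no symbol, was at 1.93 to 21.3 in 6 HT animals and 99.4 in HT animal 42, where the OvH animals had 81.9 to 212. Its difference was -3.66 (limma adjusted p = 0.195), with -4.45 in occipital cortex and -2.61 in hippocampus. Leaving out animal 42 gave -4.20 and a limma adjusted p of 0.0013. Animal 42 was also apart from the rest of HT in occipital cortex (222) and hippocampus (145). In hippocampus OvH animals 30 (11.0) and 43 (5.40) stood within the range of the other HT animals, and the other OvH animals at 96.6 to 263.

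**Figure D5:**
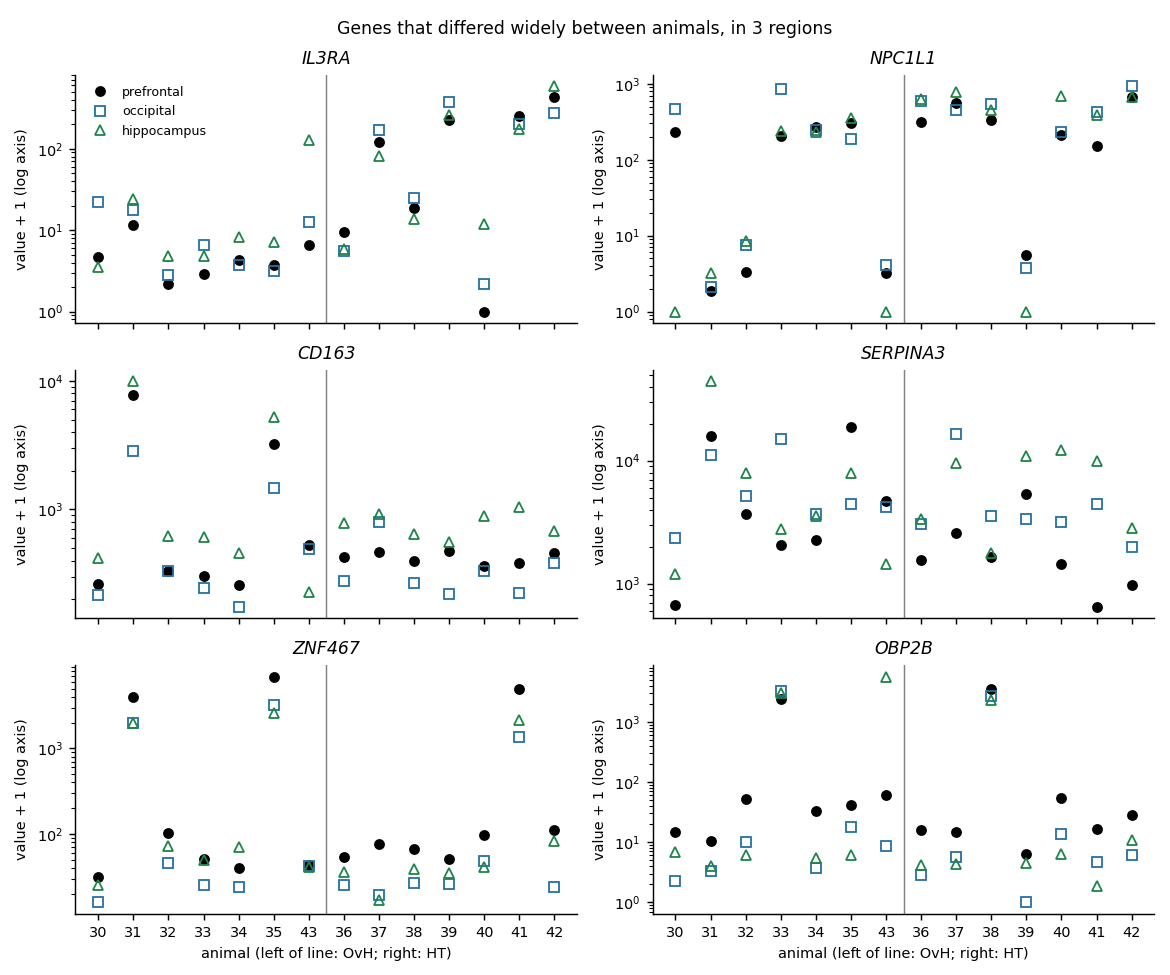
Normalized value plus 1 (log axis) of 6 genes in each animal, with OvH animals left of the line and HT animals right, filled circles for prefrontal cortex, open squares for occipital cortex and open triangles for hippocampus. IL3RA is high in HT animals 37, 39, 41 and 42, CD163 in OvH animals 31 and 35, ZNF467 in animals 31, 35 and 41, and OBP2B in animals 33 and 38, with OBP2B also at 5695 in the hippocampus library of animal 43.

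Whether the estradiol difference itself was particular to prefrontal cortex was tested within animals. Against occipital cortex, 0 of 16093 identifiers passed (limma, 75 at an unadjusted p under 0.05, 0.466%, with 0.286% higher and 0.18% lower). BTNL9, an endothelial butyrophilin-like gene, had 0.67 in prefrontal and -0.33 in occipital cortex, and CD5L, a macrophage protein, differed by 1.31 between the regions. SOX11, a transcription factor of immature neurons, had -0.40 and 0.59, and BCL11B, a transcription factor of deep-layer neurons, -0.52 and 0.36. SNTG2 had -0.05 in prefrontal and -0.90 in occipital cortex, and MESP2 had -0.59 and -1.43. All named genes here had a limma adjusted p of 0.99998.

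Against hippocampus, 0 of 16215 passed by limma (610 at an unadjusted p under 0.05, 3.76%, with 1.67% higher and 2.09% lower). The gene values that follow include OvH animals 30 and 43, whose hippocampus libraries are in doubt, as described next. RAP1GDS1, an exchange factor for small GTPases, had 0.41 in prefrontal cortex and -0.29 in hippocampus, and KYAT3 0.78 and 0.12, with a difference of 0.66 between the regions (interval 0.29 to 1.02, adjusted p = 0.997). LMO4, a cofactor of transcription in cortical neurons, differed by 0.64 (0.22 in prefrontal cortex, and 0.06 there without animals 31 and 35). NMRK2, a nicotinamide riboside kinase, differed by 1.94, with 0.40 in prefrontal cortex and -1.54 in hippocampus. In the other direction EDARADD, an adaptor of ectodysplasin signalling, had -0.28 and 0.88, and PRR18 -0.28 and 0.55.

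The hippocampus libraries of animals 30 and 43 did not correlate best with their own prefrontal libraries, each correlating best with that of the other animal. Without animals 30 and 43 the unadjusted count against hippocampus was 1105 and the adjusted count again 0 by limma. All 14 occipital libraries and 11 of 14 hippocampus libraries correlated best with the prefrontal library of their own animal, over 500 identifiers. Own correlations were 0.449 to 0.888 for occipital cortex and 0.238 to 0.803 for hippocampus. The third exception was the hippocampus library of animal 33.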

How the data were processed

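Prefrontal cortex RNA of 14 animals was sequenced as paired-end stranded mRNA libraries, per the labels' protocols. The submitters' processing notes name FastQC 0.1.1.2, Trimmomatic, STAR 2.7.3a, edgeR 3.28.0 and the rhesus build Mmul_10, with no role or order given. The deposited signal is a normalized read count per Ensembl identifier: the upper quartile is 2818.9375 in each of the 56 columns, and dividing by each column's smallest step gave whole reads for 100% of values (within 0.01 reads).

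From these values, log2(value + 1) of identifiers with a mean of at least 10 was fitted for the 14 prefrontal libraries with limma 3.58.1 (R 4.3.3, intensity trend, Benjamini-Hochberg adjustment over all identifiers, threshold 0.05). Region comparisons used the difference within each animal. edgeR 4.0.16 and DESeq2 1.42.0 were run on the recovered reads as alternatives, with other pseudocounts, filters, scalings, a myelin covariate, array weights, an animal block and each animal left out. The fit was tested on simulated data. Depth is given as recovered reads, and no more than 1 library per animal and region exists.

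The members and lists were chosen with earlier results of these data known. Some results are not reported here. Named genes are, among the rest, those of the 12 of smallest p in each direction, the receptors, the members of each list with the smallest p and highest level, the 5 of widest spread within groups and 5 in each direction for each region comparison; genes outside this rule are said to be chosen after their values were seen, or are list members with an unadjusted p under 0.05. Animals pair the regions, since each number is 1 animal. No sequences or coordinates are given. Each p-value sets a difference between group means against the spread between animals, as the named method models that spread.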

Additional observations from a re-analysis of the deposited data

Results flagged for a closer look

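Each group of 7 values behind a named gene was examined for 1 value far from the rest by Dixon's ratio on log2(value + 1). Of 228 groups 20 had one. Chance flags about 1 in 20 independent groups. That rate does not apply here, because the groups share the same 14 animals and 4 of the flags are in genes named for their spread within groups (NPC1L1, ZNF467 and OBP2B). Of the 20, 12 were in animals 32 or 40, whose libraries lie apart on the first principal component.

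OvH animal 32 was lowest for ESRRG (146), DLG1 (3555), BCL11B (51.5), PDGFRA (5676) and RORB (342), and highest for PGRMC1 (15166). HT animal 40 was lowest for ESRRB (17.1), DLG1 (4567), PTPRZ1 (7749.5) and KCNJ13 (10.9), and highest for CYP17A1 (77.6) and RPL13 (41923).

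OvH animal 35 was highest for MEIG1 (248) and NQO1 (6207), OvH animal 31 for PICALM (7472) and HT animal 37 for MCAM (7119). HT animal 39 was lowest for NPC1L1 (4.51). HT animal 41 was highest for ZNF467 (4962), HT animal 38 for OBP2B (3550.3) and OvH animal 33 for OBP2B (2436).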

How the results depend on the processing

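The count of 0 identifiers with an adjusted p under 0.05 was 6 by DESeq2 and 1 with a pseudocount of 10. It was 0 to 1 when each animal was left out in turn. Unadjusted counts moved from 603 to 939 without animals 31 and 35, to 1215 with array weights and to between 362 (without 38) and 859 (without 32) with 1 animal left out. With the animal as a replicate block over regions the prefrontal count was 261. Without the block the counts between regions were 22 against occipital cortex and 229 against hippocampus, and without animals 30 and 43 the latter was 1105. The block changed no adjusted call.

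Without animals 31 and 35 the differences turned to -0.079 for PGRMC1, -0.016 for SLC17A7, -0.00059 for CALB1, -0.040 for VIP, 0.051 for MCAM, 1.45 for ZNF467, 0.39 for S100A9, 0.38 for CD163 and 0.27 for CD44. CD44, like CD163, was chosen after its values were seen. ESRRG was -0.037 by DESeq2, -0.032 by edgeR, -0.067 without animals 32 and 40, -0.082 with array weights and -0.0015 with equal totals. ZNF467 was 0.37 with array weights, OBP2B 0.48 by edgeR and S100A9 0.20 by DESeq2. With 1 animal left out the ranges were -0.31 to 0.24 for ESRRG, -0.11 to 0.24 for ESRRB, -0.027 to 0.16 for PGRMC1, -0.60 to 0.016 for RORB, -1.34 to 0.40 for ZNF467, -1.60 to 0.40 for OBP2B and -1.21 to 0.14 for S100A9. The cause was not tested.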
